A study of Mus musculus with 4 samples.

Results

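Dividing cells with no molecule of 3 genes of the intermediate lobe were examined in the pituitary glands of 14-week-old mice. They were chosen by counts: at least 500 detected genes, at most 20% mitochondrial molecules, no molecule of the melanotroph genes Pcsk2, Pax7 and Oacyl, and at least 1 molecule of at least 4 of 10 mitosis genes (Mki67, Top2a, Birc5, Cdk1, Ccnb1, Ccnb2, Cenpf, Ube2c, Pbk and Nusap1). A molecule is counted by its unique molecular identifier (UMI), a short tag on each captured RNA. The rule found 64 cells in the p25OE library and 23 in the WT library, 87 of the 14246 cells kept at 14 weeks and of 29899 kept in all 4 libraries. The p25OE mice overexpress p25, a fragment of p35, which the gene Cdk5r1 encodes and which activates the kinase Cdk5. The WT mice were their wild-type littermates. All libraries carry the same strain label, C57BL/6- B6;CBA-BiTg mice. The promoter that drives p25 and the number of glands behind a library are not given in the sources used here. Each genotype is 1 library at 14 weeks, so differences cannot be compared with variation among animals, and no p-value was computed. Intervals are exact 95% intervals, binomial for a share and from a pair of Poisson counts for a ratio, and cover counting error only.

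The anterior lobe of the pituitary makes most of its hormones in separate cell types. Somatotrophs make growth hormone (Gh) and lactotrophs make prolactin (Prl), and both depend on the transcription factor Pou1f1, as thyrotrophs do. Corticotrophs make Pomc under the factor Tbx19, and melanotrophs of the intermediate lobe make it with Pax7. Adult pituitary cells divide rarely, and the gland also holds stem cells marked by Sox2, which is known to give rise to hormone cells, as well as resident immune cells. A cell that prepares to divide first switches on genes of DNA replication and then, before and during mitosis, genes of the spindle, the kinetochore and the cyclin B kinase.

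Many of the mitosis genes share promoter elements, and 3 promoters of genes that define the cells are shown for that reason beside that of Prl, the hormone gene that led in more of the dividing cells than Gh. The windows run from 250 bases before to 50 bases after the annotated start, 5′ to 3′ along the gene, from RefSeq on GRCm38.p6. Capitals in the mitosis genes mark TTTGAA, the core of the cell cycle homology region (CHR), and CCAAT, the box that the factor NF-Y binds, each on either strand. Capitals in Prl mark TATNCAT, used here as a core of POU1F1 sites and chosen after the data were seen. Mki67, which encodes the Ki-67 antigen, lies on the minus strand at chr7:135716330-135716629. Cdk1, the mitotic kinase, lies on the minus strand at chr10:69352863-69353162, and Ccnb2, one of its cyclins, on the minus strand at chr9:70421505-70421804. Prl lies on the plus strand at chr13:27057320-27057619.
Mki67: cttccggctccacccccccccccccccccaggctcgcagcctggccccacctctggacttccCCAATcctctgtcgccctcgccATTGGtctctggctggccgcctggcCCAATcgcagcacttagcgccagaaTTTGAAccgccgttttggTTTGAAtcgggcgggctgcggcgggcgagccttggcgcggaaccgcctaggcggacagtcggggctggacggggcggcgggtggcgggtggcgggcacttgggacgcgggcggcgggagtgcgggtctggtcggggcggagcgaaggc
Cdk1: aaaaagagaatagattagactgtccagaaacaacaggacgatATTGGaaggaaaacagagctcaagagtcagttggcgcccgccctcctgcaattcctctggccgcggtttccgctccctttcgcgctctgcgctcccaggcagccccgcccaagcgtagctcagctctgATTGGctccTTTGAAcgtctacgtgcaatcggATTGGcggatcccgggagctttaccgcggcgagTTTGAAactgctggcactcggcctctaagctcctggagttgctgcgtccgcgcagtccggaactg
Ccnb2: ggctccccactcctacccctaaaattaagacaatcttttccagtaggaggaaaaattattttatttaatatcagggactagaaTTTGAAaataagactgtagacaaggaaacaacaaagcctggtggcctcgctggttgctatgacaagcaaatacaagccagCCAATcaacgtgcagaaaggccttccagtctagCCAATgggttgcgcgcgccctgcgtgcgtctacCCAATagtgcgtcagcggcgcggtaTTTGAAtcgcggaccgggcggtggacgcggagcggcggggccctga
Prl: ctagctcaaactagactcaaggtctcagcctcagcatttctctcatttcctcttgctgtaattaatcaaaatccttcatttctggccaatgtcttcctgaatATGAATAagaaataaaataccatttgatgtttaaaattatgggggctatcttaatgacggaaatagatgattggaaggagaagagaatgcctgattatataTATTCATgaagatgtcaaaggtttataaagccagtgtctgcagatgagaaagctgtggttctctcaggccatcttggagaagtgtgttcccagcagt
Of the 9 promoters found for the 10 genes of the rule, 6 (66.7%) held TTTGAA and 7 (77.8%) held CCAAT, with both in the same 6. Of 39 promoters of 37 further mitosis genes, 31 (79.5%) held TTTGAA and 29 (74.4%) held CCAAT, and 64.1% held both. In 40 promoters of replication and licensing genes the shares were 20%, 60% and 10%. Across all 32851 promoters of the table they were 17.9%, 37.4% and 6.95%. TATNCAT stood in 8.84% of all promoters, and the Prl window held 2 copies that do not overlap the other motifs. A match of letters is a description of the window and not evidence of a bound factor.

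The p25OE library held 15018 barcodes and 77275454 UMIs, and the WT library 8911 barcodes and 95242353 UMIs. Barcodes under 500 genes made up 43.6% of the p25OE library and 18.5% of the WT library, and those over 20% mitochondrial UMIs 27.5% and 12.7%. After both filters 7667 p25OE cells and 6579 WT cells remained, of which 4440 (57.9%) and 5250 (79.8%) had no UMI of the 3 melanotroph genes. The libraries therefore differ in depth and in how much of each lies outside the melanotroph gate, and the part of either in the results was not tested except where a value is given. The 2 libraries share 32 barcodes, 13 of them kept and 0 of them among the dividing cells. Median UMIs of the dividing cells were 5574 in p25OE (994 to 62227) and 9450 in WT (2224 to 33161), close to the 5076 and 8728 of the non-dividing cells outside the gate. Among the dividing cells 15 in p25OE and 0 in WT lay below 2000 UMIs. Just inside the threshold, with exactly 4 of the 10 mitosis genes, were 15 p25OE and 3 WT cells, while 19 and 6 cells just outside it had 3. All 10 genes were found in 9 p25OE cells and 3 WT cells. Xist was detected in 42 dividing cells of p25OE and 19 of WT, and Ddx3y, a Y-linked gene, in 0 of either.

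Dividing cells made up 1.44% (1.11 to 1.84) of the p25OE cells outside the melanotroph gate, 64 of 4440, and 0.438% (0.278 to 0.657) of the WT cells, 23 of 5250. The share was 3.29-fold higher in p25OE (2.01 to 5.55). Set against all kept cells, whichever lobe they came from, the shares were 0.835% (0.643 to 1.06) and 0.350% (0.222 to 0.524), a ratio of 2.39 (1.46 to 4.03). Since UMIs per cell limit how many mitosis genes can be seen, cells were also thinned to 2000 UMIs and called dividing with at least 2 of the 10 genes. That left out 856 p25OE and 549 WT cells, 15 and 0 of them dividing, and gave 54 of 3584 cells (1.51%) in p25OE and 28 of 4701 (0.596%) in WT. The ratio was then 2.53 (1.57 to 4.15). The p25OE share was the higher on each of these counts, with intervals of the ratio that did not reach 1.

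The label of anterior-lobe cells holds for less than the whole set. By their markers the dividing cells fell into 4 sets, defined after the data were seen. Hormone-gene cells have Gh or Prl at 10% of their UMIs or more, or at least 2 UMIs of Pou1f1. Immune-gene cells have at least 5 UMIs and 0.25% of their UMIs from macrophage, T or NK cell, B cell and MHC class II genes. A few cells meet both limits, and the rest meet neither. Of the 64 p25OE cells 27 (42.2%, 29.9 to 55.2) were hormone-gene cells, 19 (29.7%) immune-gene cells, 2 (3.12%) both and 16 (25%) neither. Of the 23 WT cells 6 (26.1%, 10.2 to 48.4) were hormone-gene cells, 14 (60.9%, 38.5 to 80.3) immune-gene cells, 2 both and 1 neither. Immune-gene cells were thus the largest set among the WT cells and hormone-gene cells the largest among the p25OE cells. Near the limits, the higher of Gh and Prl lay between 5% and 20% in 12 p25OE and 4 WT cells; immune genes lay within 2 times of their limit of 0.25% in 5 and 1.

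**Figure D1:**
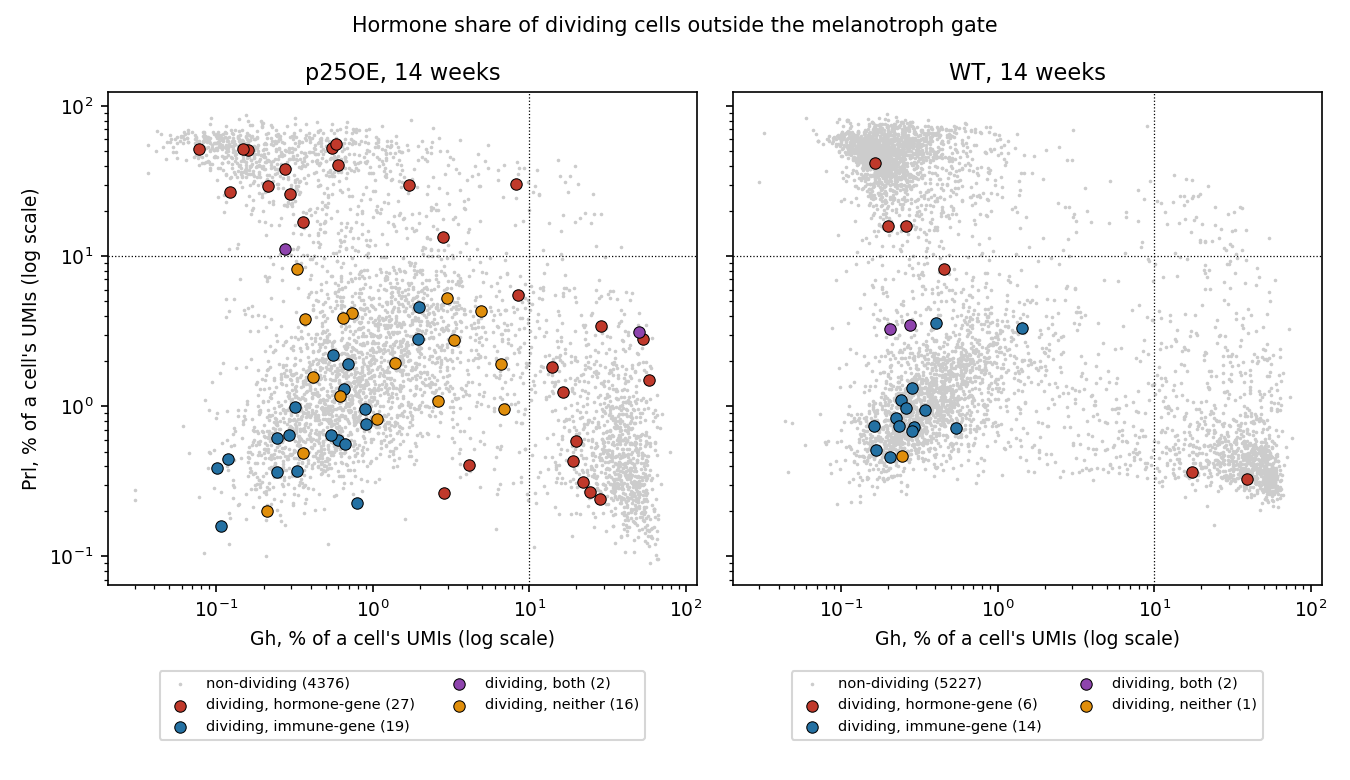
Gh (x axis) against Prl (y axis) as a percentage of each cell's UMIs, both on log scales, in p25OE (left) and WT (right) at 14 weeks; grey points are non-dividing cells outside the melanotroph gate, coloured points the 64 and 23 dividing cells by set, dotted lines mark 10%, and shares of 0 are drawn at 0.03%. Dividing hormone-gene cells sit among both the Prl-rich and the Gh-rich cells, and no dividing cell lies beyond both lines. Of the non-dividing cells 0.594% in p25OE and 0.899% in WT had both hormones at 10% or more.

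Hormone-gene cells were dividing more often in p25OE, by more than their counting error. Of the hormone-gene cells, 27 of 1971 (1.37%, 0.905 to 1.99) were dividing in p25OE and 6 of 3099 (0.194%, 0.0711 to 0.421) in WT, a ratio of 7.08 (2.86 to 21.0). Of the immune-gene cells, 19 of 965 (1.97%, 1.19 to 3.06) were dividing in p25OE and 14 of 1047 (1.34%, 0.733 to 2.23) in WT, a ratio of 1.47 (0.70 to 3.17). The intervals of these 2 ratios overlap, and the difference between them was not tested. Among cells of neither set 16 of 1378 (1.16%) p25OE cells and 1 of 990 (0.101%) WT cells were dividing, a ratio of 11.5 (1.79 to 482) that rests on 1 WT cell.

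By hormone, 10 of 989 Gh-rich cells (1.01%) were dividing in p25OE and 2 of 1037 (0.193%) in WT, a ratio of 5.24 (1.12 to 49.2). Of the Prl-rich cells 14 of 921 (1.52%) were dividing in p25OE and 3 of 1928 (0.156%) in WT, a ratio of 9.77 (2.73 to 53.0). Here Gh-rich and Prl-rich mean 10% of UMIs or more outside the immune-gene set. Both kinds of cell thus had the higher dividing share in p25OE, on counts of 2 and 3 cells in WT. Cells with at least 1 UMI of Pou1f1, immune or not, were dividing in 19 of 1654 (1.15%) p25OE cases and 10 of 2890 (0.346%) WT cases, a ratio of 3.32 (1.47 to 7.99). Over hormone-gene cells with at least 2000 UMIs the ratio was 6.03 (2.37 to 18.2). After thinning to 2000 UMIs, 22 of 1823 (1.21%) p25OE and 7 of 2996 (0.234%) WT hormone-gene cells were called dividing, a ratio of 5.17 (2.13 to 14.3), against 1.20 (0.599 to 2.39) for immune-gene cells.

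**Figure D2:**
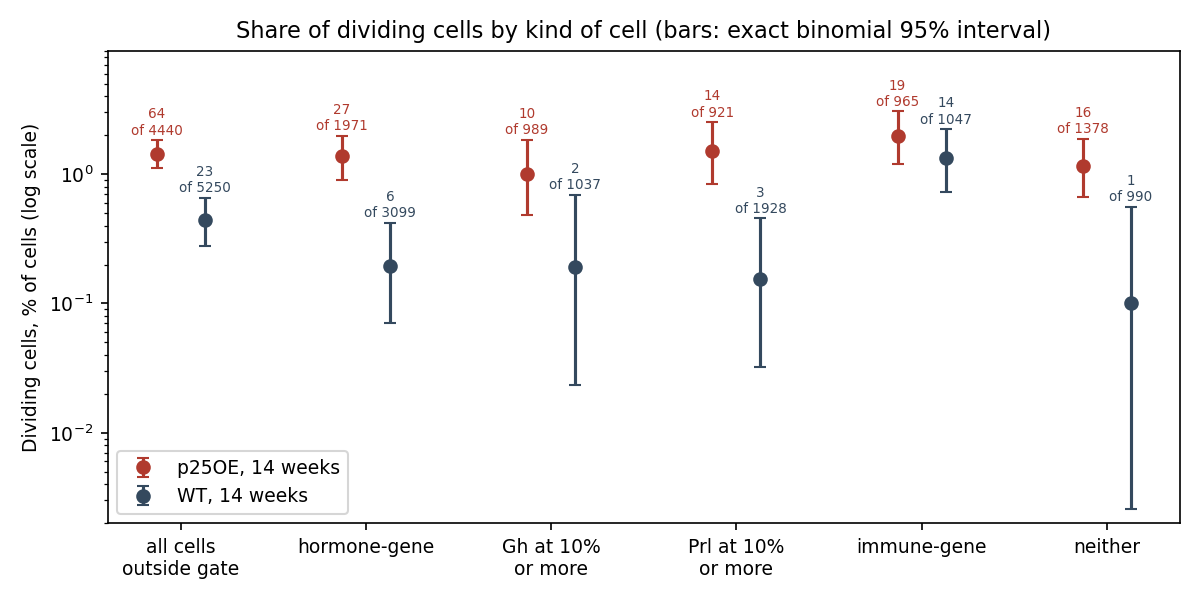
Share of dividing cells (log scale, percent) by kind of cell outside the melanotroph gate, p25OE left of WT in each pair, with exact binomial 95% intervals. The pair for all cells stands at 1.44% and 0.438%, that for hormone-gene cells at 1.37% and 0.194%, and that for immune-gene cells at 1.97% and 1.34%.

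The gate removes a cell for a single molecule of its 3 genes. Among non-dividing cells with Gh at 10% or more, immune-gene cells included, 24.8% in p25OE and 20.9% in WT had at least 1 UMI of Pcsk2, Pax7 or Oacyl. Among those with Prl at 10% or more the shares were 25.6% and 13.5%, and in immune-gene cells 20% and 5.66%. Inside the gate the rule on mitosis genes found 162 p25OE and 10 WT cells, of which 26 and 6 met the hormone-gene limits and 37 of the p25OE cells had Pomc at 10% of UMIs or more. Of those 26 and 6 cells, 13 and 4 carried exactly 1 UMI of the gate genes, and the others more. Where these molecules came from was not tested. Without the gate, 53 of 2689 (1.97%) p25OE and 12 of 3725 (0.322%) WT hormone-gene cells were dividing, a ratio of 6.12 (3.23 to 12.6). Dividing p25OE cells inside the gate had medians of 16227.5 UMIs and 4.03% Pomc. Those of neither set outside it had medians of 2022.5 UMIs and 0.369% Pomc. Whether shallow cells of the melanotroph lineage passed the gate, and so count among the 64, was not tested.

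The 6 WT hormone-gene cells can be given one by one. Prl took 42.0%, 15.9%, 15.8% and 8.23% of the UMIs in 4 of them, with 32893, 21278, 33161 and 4205 UMIs and Gh under 0.5% in each. The remaining WT cells carried Gh at 39.0% and 17.5% of 32201 and 29509 UMIs, with Prl at 0.326% and 0.363%. All 6 held Pou1f1, with 3 to 10 UMIs. The Prl cell of 33161 UMIs also held Pomc at 3.57%, and no other WT hormone-gene cell exceeded 0.119%.

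Among the 27 p25OE hormone-gene cells 14 were Prl-rich, with Prl at 13.5% at the lowest, 34.2% at the median and 55.8% at the highest. In 10 cells Gh took 14.0% at the lowest, 23.2% at the median and 58.4% at the highest, and 3 cells entered by Pou1f1 alone. The cell with the most UMIs, 62227, carried Prl at 51.6%, all 10 mitosis genes and 12 Pou1f1 UMIs. A cell of 14377 UMIs carried Gh at 19.0%, all 10 mitosis genes and 14 Pou1f1 UMIs. At the other end, a cell of 994 UMIs had Prl at 13.5% with no Pou1f1. Depth set the WT cells apart: their median was 30855 UMIs against 16084 in non-dividing WT hormone-gene cells, while the p25OE medians were 10497 and 10548.

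No dividing cell of either library had both Gh and Prl at 10% or more, and 2 p25OE cells (3.12%) had both at 5% or more. One of these, of 2848 UMIs, held 8.22% Gh and 30.4% Prl. Non-dividing cells rarely held both as well. At 10% or more they were 26 of 4376 (0.594%) in p25OE and 47 of 5227 (0.899%) in WT. At 5% or more they were 2.17% and 1.74%. The counts of dividing cells lie near these shares and do not set them apart. Free RNA in the droplets sets how low a hormone share can be read. The reference cells were non-dividing cells with macrophage and T or NK cell markers together at 0.5% of UMIs or more. Such cells should make neither hormone. In them Gh reached a median of 0.886% and a 95th percentile of 6.06% in p25OE, against 0.402% and 1.58% in WT. For Prl the medians were 1.69% and 1.27% and the 95th percentiles 10.6% and 7.67%. The limit of 10% thus lies near the upper end of free Prl in p25OE, and all but 1 of the 14 Prl-rich p25OE cells lay above 15%.

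Hormone shares of the dividing p25OE cells were lower at the median than those of their non-dividing counterparts. Gh-rich dividing p25OE cells had a median of 23.2% Gh (n = 10) against 36.7% in 979 non-dividing ones, and the WT cells, at 17.5% and 39.0%, stood beside a median of 38.2% in 1035. Prl-rich dividing p25OE cells had a median of 34.2% Prl (n = 14) against 44.5% in 907 non-dividing ones, and the WT cells, at 15.8%, 15.9% and 42.0%, stood beside 47.5% in 1925. The ranges of dividing and non-dividing cells overlapped in each case.

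**Figure D3:**
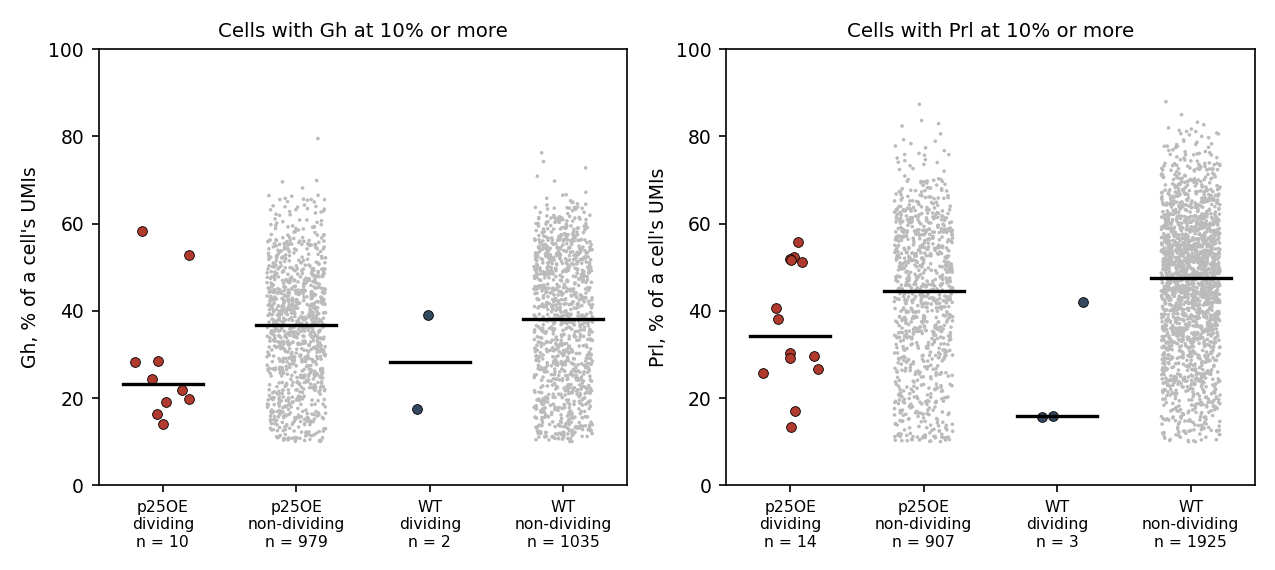
Gh share of UMIs in Gh-rich cells and Prl share in Prl-rich cells, in percent, dividing beside non-dividing cells, p25OE left of WT, with a line at each median. Medians of Gh are 23.2% and 36.7% in dividing and non-dividing p25OE cells, and those of Prl 34.2% and 44.5%.

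Lineage factors were read by detection, since each gives few UMIs per cell. Of the dividing cells, 19 in p25OE (29.7%) and 10 in WT (43.5%) held Pou1f1, and after thinning to 2000 UMIs 11 of 49 (22.4%) and 5 of 23 (21.7%) did. It also helps to define the sets, since 2 UMIs admit a cell to the hormone-gene set and keep it out of the immune-gene set. With that limit in place it was found in 18 of the 27 p25OE hormone-gene cells (66.7%) and all 6 of WT, and in 0 of 19 immune-gene cells of p25OE and 2 of 14 of WT. Both WT cells that met both limits held it, and neither of the p25OE ones did. The background in non-dividing immune-gene cells was 2.75% in p25OE and 4.26% in WT. At 2000 UMIs, 11 of 22 (50%) dividing p25OE hormone-gene cells held it, against 34.5% of the non-dividing ones. Tbx19, the corticotroph factor, was found in 1 p25OE cell of neither set and 1 WT cell of both. Sox2, the stem cell factor, was found in 4 p25OE cells and 0 WT cells. C1qa, a complement gene of macrophages, was found in 15 and 5 cells, and Cd3e, a chain of the T cell receptor complex, in 3 and 2.

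No cell had Pomc at 10% of UMIs or more. The highest share was 6.61%, in a p25OE cell of neither set with 1983 UMIs and none of the corticotroph markers. A p25OE cell of neither set with 11470 UMIs had Pomc at 6.26%, with 5 UMIs of corticotroph markers and 4 of Esm1, a melanotroph gene that the gate does not use. Esm1 gave 8 UMIs in all dividing p25OE cells and 7 in WT. The 1 WT cell of neither set, of 9450 UMIs, held 65 UMIs of mural cell and fibroblast markers and none of immune ones. An immune-gene p25OE cell of 14505 UMIs held 67 UMIs of stem cell markers. Of the 16 p25OE cells of neither set 8 had fewer than 2000 UMIs. Thyrotropin, the hormone of thyrotrophs, is made of the subunits that Cga and Tshb encode. A cell of 1759 UMIs held 156 of Cga and 21 of Tshb, a cell of 1122 UMIs 56 and 48, and the cell with Pomc at 6.26% 52 and 22, with 0 UMIs of Pou1f1, Lhb and Fshb in each of these 3 p25OE cells. No WT dividing cell held more than 6 UMIs of Cga or 2 of Tshb. Single cells of other lineages were thus present among those dividing, in numbers too small to compare.

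Markers of other cell types were summed over the dividing hormone-gene cells. Macrophage markers gave 32 UMIs in the 27 p25OE cells, with 7 of 10 markers seen and C1qc, Csf1r and Cx3cr1 at 0, and 7 UMIs in the 6 WT cells, with 4 of 10 seen. T or NK cell markers gave 1 UMI in each, neutrophil markers 0, and corticotroph markers other than Pomc 1 UMI in p25OE and 5 in WT. All 5 lay in the WT cell with Pomc at 3.57%. Other lists gave more: stem cell markers 88 and 32 UMIs, mural cell and fibroblast markers 63 and 30, and erythroid markers 25 and 0, beside 62 and 23 for somatotroph and 36 and 21 for lactotroph markers. Per 10000 UMIs the stem cell list came to 2.47 in p25OE, against 2.01 in non-dividing hormone-gene cells, and to 2.09 against 2.60 in WT. The mural and fibroblast list came to 1.76 against 1.59 in p25OE and 1.96 against 2.56 in WT. Both lists thus differed by less than 1.5 times between dividing and non-dividing cells of the set, and their part in the results was not tested. Doublet scores called 4 p25OE and 2 WT cells of the whole libraries, and leaving out the 6% with the highest scores took 3 of the 64 and 2 of the 23 dividing cells. The ratio of hormone-gene shares was then 6.60 (2.64 to 19.7).

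Transcripts of the hormone-gene cells were compared by their summed counts, 27 dividing against 1944 non-dividing cells in p25OE and 6 against 3093 in WT. Ratios are relative to the median gene, and called means at least 2-fold among genes with at least 20 UMIs in the pair of sums. A gene can reach 20 UMIs through the dividing cells alone, so counts for lists of cell cycle genes are a description. The 10 genes of the rule are higher by construction: Mki67 gave 234 UMIs in the dividing p25OE cells and 81 in the WT ones, against 28 and 43 UMIs in all non-dividing cells together. Of the 13453 genes tested in p25OE 10.2% were called higher and 11.1% lower, and of 14561 in WT 11.8% and 8.76%. Plain CPM, that is UMIs scaled to each sum's total, raises every log2 ratio here by 0.40 in p25OE and 0.54 in WT, which gives 17.2% higher and 5.37% lower in p25OE and 22.2% and 3.32% in WT. Of the genes of the lists and ranks it turned the direction of 40 of 405 in p25OE and 41 of 400 in WT, none of them called before.

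Mitosis genes that the rule did not use were higher in the dividing cells as well. In p25OE 41 of 42 tested were called higher, with a median log2 ratio of 6.88, and in WT 35 of 36, with a median of 6.74, while the median over all genes was 0. Hmmr, a spindle assembly protein, gave 115 UMIs in dividing against 12 in non-dividing p25OE cells (501-fold, 276 to 997) and 32 against 5 in WT. Knl1, which builds the outer kinetochore, gave 82 against 7 in p25OE (612-fold, 284 to 1570). Pttg1, securin, was the one member not called higher in either library: it gave 4 against 588 UMIs in p25OE (0.355-fold, 0.0965 to 0.915) and 5 against 1197 in WT (0.990-fold, 0.321 to 2.32). The share of other mitosis genes seen in a cell varied widely. In p25OE hormone-gene cells 1 to 43 of 45 were detected, with a median of 20, and in WT 27 to 41 with a median of 35.

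**Figure D4:**
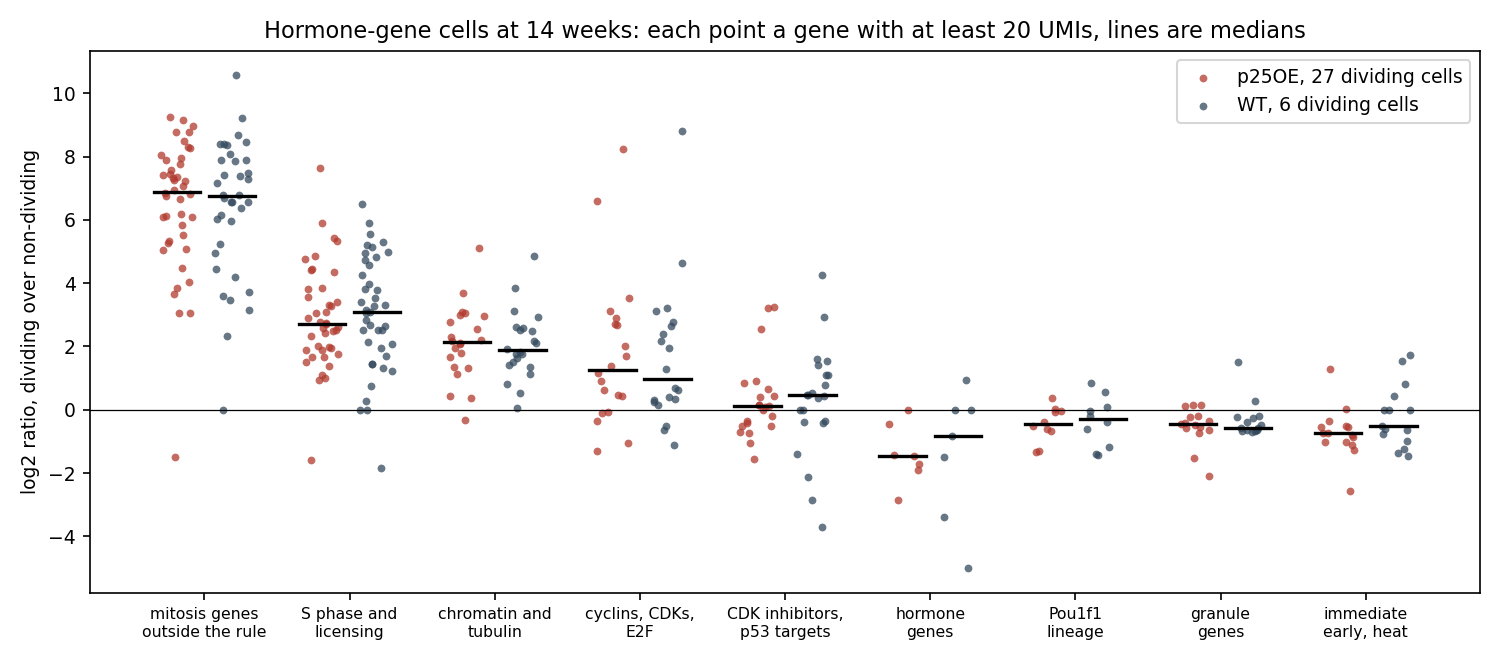
Log2 ratio of dividing over non-dividing hormone-gene cells for the genes of 9 lists with at least 20 UMIs, p25OE left of WT, a line at each median; genes with no UMI in the dividing cells are drawn at no further than 0. Medians of the mitosis genes outside the rule are 6.88 and 6.74, those of the replication genes 2.72 and 3.09, and those of the hormone genes -1.47 and -0.83.

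Replication and licensing genes were higher too, by less. In p25OE 39 of 41 were called higher, with a median log2 ratio of 2.72, and in WT 36 of 41, with a median of 3.09. Rrm2, a subunit of ribonucleotide reductase, gave 19 UMIs in dividing against 5 in non-dividing p25OE cells (199-fold, 71.7 to 680). Clspn, a checkpoint adaptor at replication forks, was 59.2-fold higher in p25OE (35.2 to 100) and 90.3-fold in WT (34.6 to 212). Mcm2, a subunit of the replicative helicase, gave 16 against 150 UMIs in p25OE (5.57-fold, 3.10 to 9.35) and 8 against 264 in WT (7.18-fold, 3.07 to 14.4). Ung, a uracil DNA glycosylase, was the lowest of the list, at 0.330-fold (0.0397 to 1.20) and 0.277-fold (0.00700 to 1.55). Between 0 and 42 of the 44 genes were seen in a p25OE cell and 11 to 38 in a WT cell. The p25OE cell with 0 had 1827 UMIs and the WT cell with 11 had 4205. Since UMIs per cell limit this count, whether the cells differ in their replication program was not tested.

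Genes of chromatin and tubulin followed, with 19 of 22 called higher in each library. Hmgb2, a chromatin protein abundant in cycling cells, was 34.8-fold higher in p25OE (30.7 to 39.3) and 29.1-fold in WT (24.1 to 35.0). Stmn1, a regulator of microtubules, was 7.83-fold (7.37 to 8.32) and 8.68-fold (7.90 to 9.52) higher, with 1227 and 472 UMIs in the dividing cells. Among DNA damage genes 12 of 23 were called higher in p25OE and 11 of 23 in WT, where 10.2% and 11.8% of all genes were. Brca1, of homologous recombination, stood at 38.4-fold (22 to 66.3) and 62.9-fold (31.3 to 118), and Trp53bp1, which binds at breaks, at 0.521-fold (0.238 to 0.994) and 0.363-fold (0.0748 to 1.06), the WT value not called under plain CPM.

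Cyclins and inhibitors of cyclin-dependent kinases split. Of the cyclin, kinase and E2F genes 11 of 20 were called higher in p25OE and 10 of 20 in WT, with Cdkn3, a phosphatase of Cdk1, at 302-fold (147 to 697) and 452-fold (208 to 1039). Ccnd2, cyclin D2, was lower in the dividing cells, at 37 against 4750 UMIs in p25OE (0.407-fold, 0.286 to 0.562) and 40 against 13425 in WT (0.706-fold, 0.504 to 0.962). Under plain CPM it was not called in p25OE, at 0.535-fold, and stood on the other side of 1 in WT, at 1.03-fold (0.734 to 1.40). Of the kinase inhibitors and p53 targets 3 of 22 were called higher and 2 lower in p25OE, and 7 higher and 4 lower in WT. Over all genes 10.2% were called higher and 11.1% lower in p25OE, and 11.8% and 8.76% in WT. The p25OE counts of inhibitors and p53 targets lie near those shares. Cdkn2c, which encodes the inhibitor p18, was 9.44-fold higher in p25OE (7.05 to 12.5) and 7.63-fold in WT (4.91 to 11.4). Cdkn2a, the locus of p16 and p19Arf, gave 9 UMIs in dividing p25OE cells and 4 in WT ones, at 9.22-fold (3.99 to 18.9) and 19.3-fold (5.07 to 52.8).

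Of 7 hormone genes 0 were called higher in either library, with 5 called lower in p25OE and 3 in WT, and under plain CPM 5 and 2 were called lower, with Pomc called higher in WT. Over all genes 11.1% were called lower in p25OE and 8.76% in WT. Gh was at 0.361-fold in p25OE (0.357 to 0.365) and 0.562-fold in WT (0.554 to 0.570). Prl was at 0.736-fold in p25OE (0.732 to 0.741) and, called lower, at 0.359-fold in WT (0.354 to 0.364), where it lost the call under plain CPM at 0.523-fold. Pomc stood at 0.305-fold in p25OE (0.273 to 0.340) and went the other way in WT, at 1.91-fold (1.80 to 2.02), with 95.9% of its UMIs from the 1 cell described above. These sums also move with the mix of Gh-rich and Prl-rich cells. Cga, the common subunit of the glycoprotein hormones, gave 32 UMIs in dividing against 12087 in non-dividing p25OE cells (0.138-fold, 0.0946 to 0.195) and 4 against 30405 in WT (0.0312-fold).

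Pou1f1 itself gave 103 UMIs in dividing p25OE cells (0.943-fold of non-dividing, 0.769 to 1.15, and 1.24-fold under plain CPM) and 42 in WT (0.652-fold, 0.470 to 0.882). Of 10 genes of its lineage 0 were called higher in either library, with 2 lower in p25OE and 3 in WT. Over all genes 10.2% were called higher and 11.1% lower in p25OE, and 11.8% and 8.76% in WT. Under plain CPM none of the 10 lineage genes was called lower, 2 were called higher in WT, and the medians of the list stood at -0.06 and 0.25. Neurod4, a factor of somatotrophs, stood at 1.31-fold (0.927 to 1.80) and 1.06-fold (0.566 to 1.82), and Ghrhr, the receptor for growth hormone releasing hormone, at 0.525-fold (0.293 to 0.868) and 0.488-fold (0.158 to 1.14). Of 15 genes of secretory granules and their release 0 were called higher and 2 lower in p25OE, and 1 higher and 0 lower in WT. The granule counts lie near the shares over all genes. Snap25, of the fusion machinery, was at 0.233-fold in p25OE (0.116 to 0.419) and 0.869-fold in WT (0.567 to 1.27, and 1.27-fold under plain CPM). Immediate early and heat shock genes had 1 of 15 higher and 5 lower in p25OE, and 2 higher and 3 lower in WT. Hsp90aa1, a chaperone, was the highest called in p25OE, at 2.43-fold (2.19 to 2.68), and stood at 3.32-fold in WT (2.92 to 3.77). Under plain CPM 1 gene of that list was called lower in p25OE and 0 in WT.

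When genes were ranked by the smaller of their 2 ratios, 556 of 13334 were called higher and 273 lower in both libraries. Among the first 12 were Spc25, of the kinetochore complex that carries Ndc80, Kif11 and Tpx2, of the spindle, and Ckap2, a microtubule protein. Lowest was Cga. Over all dividing cells, immune-gene cells included, 44 of 45 further mitosis genes were called higher in p25OE and 41 of 42 in WT, where 9.98% and 12.9% of all genes were (14.3% and 20.5% under plain CPM) and 12.8% and 13.9% were called lower (7.90% and 5.92%). The 4 MHC class II genes were called higher in both as well, with median log2 ratios of 1.23 in p25OE and 2.69 in WT. Immune-gene cells made up 60.9% (38.5 to 80.3) of the dividing and 19.8% of the non-dividing cells in WT. In p25OE they made up 29.7% (18.9 to 42.4) and 21.6%, a difference within counting error.

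All 64 dividing p25OE cells were also set against all 23 of WT, although the 2 sums hold different mixes of cells. Of 5757 genes 8.11% were called higher and 4.38% lower in p25OE (6.13% and 6.39% under plain CPM). None of the 10 genes of the rule was called, and 3 of 45 other mitosis genes and 2 of 38 replication genes were called higher, shares near the background (1 to 8 and 0 to 9 genes under the alternatives). The 4 MHC class II genes were all called lower, with a median log2 ratio of -1.37. Cd74, their invariant chain, gave 1783 UMIs in p25OE and 2546 in WT (0.408-fold, 0.384 to 0.433). C1qa of macrophages gave 494 UMIs in 15 p25OE cells and 65 in 5 WT cells (4.43-fold, 3.41 to 5.83). Interferon-induced genes had 4 of 14 called higher, with Ifit3, which restrains viral RNA, at 75 against 13 UMIs (3.36-fold, 1.85 to 6.60). How far the mix of cells enters these values was not tested, and the hormone-gene and immune-gene cells are therefore compared apart.

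Dividing hormone-gene cells of p25OE were next set against those of WT, 27 cells with 356941 UMIs against 6 cells with 153247. Of 3336 genes tested 10.7% were called higher and 3.12% lower in p25OE, and 1.44% and 0.270% with the interval beyond 1.5-fold, while the median log2 ratio was 0.13. Plain CPM lowers every log2 ratio by 0.27 and gives 5.58% higher and 6.77% lower. Of the 204 genes of the lists and ranks tested here, 20 had another call under plain CPM and 29 turned direction, none of them called before. A single WT cell can hold most UMIs of a gene. Of the 10 genes of the rule 1, Top2a, was called higher, with 240 UMIs in p25OE and 59 in WT (2.11-fold, 1.58 to 2.85). Under plain CPM it was not called, at 1.75-fold (1.31 to 2.36). Mki67 stood at 1.5-fold (1.16 to 1.95). Of the other mitosis genes 15 of 39 were called higher, 3 of them with the interval beyond 1.5-fold, and the median log2 ratio was 0.77 (11 of 39 and 0.49 under plain CPM). Knl1 gave 82 UMIs against 11 (3.87-fold, 2.05 to 8.05) and Prc1, which bundles microtubules at the midzone, stood at 2.58-fold (1.76 to 3.87). Replication genes had 2 of 25 called higher and 1 lower, with Mcm2 at 16 against 8 UMIs (1.04-fold, 0.419 to 2.80). The share called higher was above the background among mitosis genes and near it among replication genes. The rule chose these cells by mitosis genes, at median depths of 10497 UMIs in p25OE and 30855 in WT. Both counts are therefore a description, and the part of depth and of the rule in them was not tested.

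Linker histone genes, chosen here after their values were seen, stood among the largest differences. Hist1h1e gave 124 UMIs in 15 of the 27 p25OE cells and 7 UMIs in 3 of the 6 WT cells (9.19-fold, 4.33 to 23.3). In non-dividing hormone-gene cells it was 1.90-fold higher (1.72 to 2.10). Hist1h1b gave 98 UMIs against 11 (4.62-fold, 2.47 to 9.56), and 7.57-fold (4.29 to 14.1) in non-dividing cells. Hist1h1c gave 114 against 16 (3.69-fold, 2.18 to 6.68), and 1.06-fold (0.982 to 1.14) in non-dividing cells. Most transcripts of such genes lack a poly(A) tail, so capture on poly(T) sees a part of them. In dividing immune-gene cells Hist1h1e stood at 0.993-fold (0.653 to 1.52), with 55 UMIs in p25OE and 42 in WT.

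Other cell cycle regulators went both ways. Foxm1, an activator of mitosis genes, gave 28 UMIs in 11 p25OE cells against 2 UMIs in WT (7.26-fold, 1.83 to 62.9). Ccnd2 gave 37 UMIs against 40 (0.480-fold, 0.298 to 0.769) and Ccnd1, cyclin D1, 19 against 25 (0.394-fold, 0.205 to 0.745), with 0.752-fold and 0.909-fold in non-dividing cells. A single WT cell held 20 of the 40 Ccnd2 UMIs and 14 of the 25 of Ccnd1. Of the kinase inhibitors and p53 targets 4 of 13 were called higher and 1 lower, where 10.7% and 3.12% of all genes were. Gadd45g, a stress and growth arrest gene, gave 42 UMIs against 3 (7.26-fold, 2.32 to 36.6) and stood at 1.03-fold in non-dividing cells, Cdkn2d, the inhibitor p19, stood at 2.17-fold (1.35 to 3.63; 1.79-fold and not called under plain CPM), and Cdkn1a, p21, at 1.07-fold (0.592 to 1.99; 0.883-fold under plain CPM).

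Of 11 immediate early and heat shock genes tested, 6 were called higher in dividing p25OE cells, where 10.7% of all genes were, 5 of them with the interval beyond 1.5-fold, and 4 under plain CPM. In non-dividing hormone-gene cells 8 of 15 were called higher, where 3.99% of all genes were. Fos gave 371 UMIs against 62 (3.10-fold, 2.37 to 4.13; non-dividing 2.55-fold), with 67.7% of the WT UMIs from 1 cell. Zfp36, which destabilises mRNAs, stood at 5.27-fold (2.29 to 14.9; non-dividing 2.38-fold) and Dusp1, a phosphatase of MAP kinases, at 0.648-fold (0.428 to 0.986; non-dividing 1.52-fold). Socs3, an inhibitor of cytokine signals, gave 80 UMIs against 7 (5.93-fold, 2.75 to 15.2; non-dividing 3.19-fold). Gm42418 and AY036118, gene models that overlap ribosomal RNA, and Lars2, a mitochondrial leucyl-tRNA synthetase, were higher in dividing p25OE cells at 4.89-fold (4.11 to 5.86), 9.90-fold (5.56 to 19.4) and 5.19-fold (2.25 to 14.7), and at 5.07-fold, 4.97-fold and 4.57-fold in non-dividing ones.

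Among 5 hormone genes tested in dividing cells, Prl, Cga and Tshb were called higher and Pomc lower in p25OE. Over all genes 10.7% were called higher and 3.12% lower (5.58% and 6.77% under plain CPM). Cga gave 32 UMIs against 4 (4.15-fold, 1.47 to 16.1) and Tshb 18 against 3 (3.11-fold, 0.908 to 16.5), so both rest on few WT UMIs. Prl stood at 2.06-fold (2.03 to 2.09; non-dividing 0.906-fold) and was no longer called under plain CPM, at 1.70-fold. Gh stood at 0.878-fold (0.862 to 0.895; non-dividing 1.23-fold) and Pomc at 0.139-fold. Of the WT UMIs 60.1% of Prl, 70.1% of Gh and 95.9% of Pomc came from 1 cell each. Crhbp, which binds corticotropin releasing hormone, gave 36 UMIs against 81 (0.230-fold, 0.151 to 0.345; non-dividing 0.413-fold), with 95.1% of the WT UMIs from 1 cell. Pou1f1 stood at 1.27-fold (0.880 to 1.87; non-dividing 0.794-fold). Cdk5r1, the gene whose product gives p25, was detected in 7 dividing cells of p25OE (10.9%) and 2 of WT (8.70%). In non-dividing hormone-gene cells it gave 241 UMIs against 548 (0.934-fold, 0.800 to 1.09). Whether a transcript of the transgene is counted under Cdk5r1 is not given in the sources used here, so this value does not check the genotype.

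**Figure D5:**
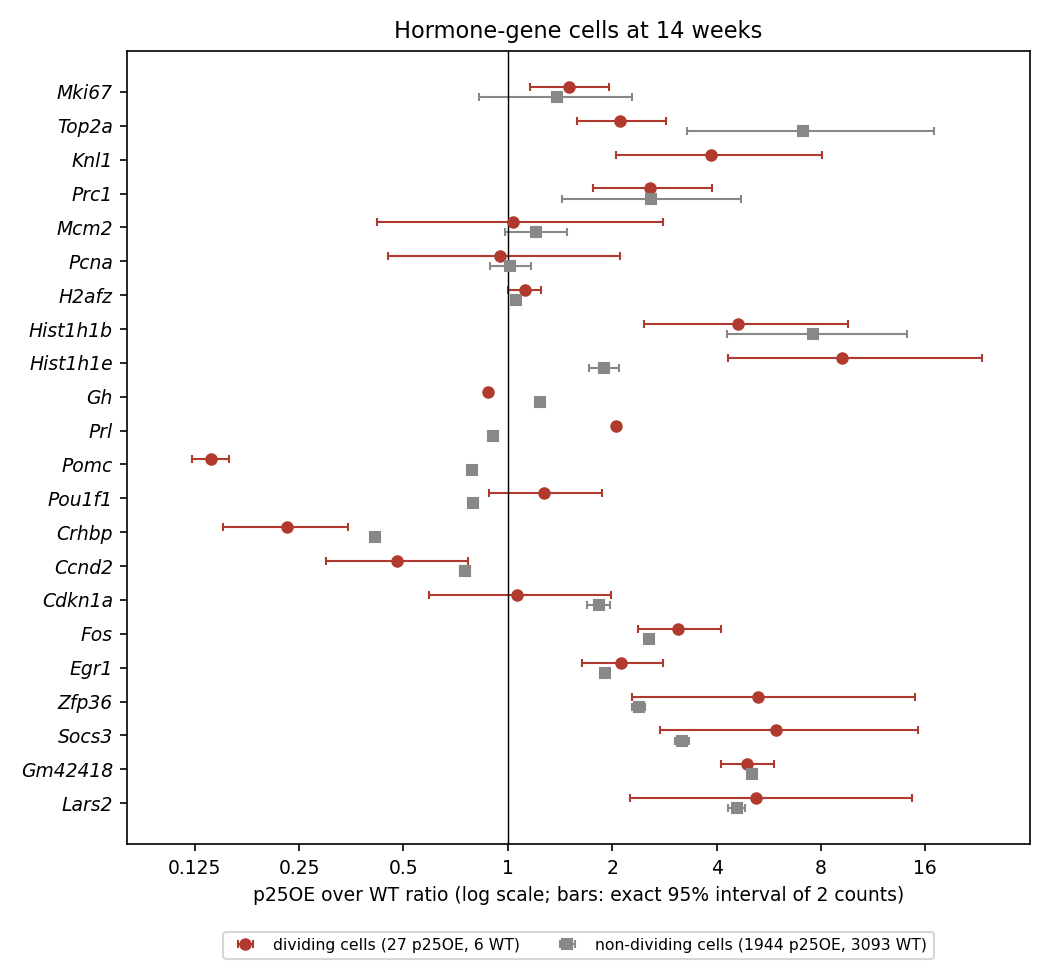
Ratio of p25OE over WT (log scale) for 22 genes in hormone-gene cells, red circles for dividing and grey squares for non-dividing cells, with exact 95% intervals; Knl1 has no square because it gave under 20 UMIs in the non-dividing cells. Fos is to the right of 1 in both kinds of cell, while Hist1h1e stands at 9.19 in dividing and 1.90 in non-dividing cells.

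The dividing immune-gene cells differed from the rest of their set in both libraries. Of the further mitosis genes 28 of 29 were called higher in p25OE and 22 of 23 in WT, where 5.35% and 5.22% of all genes were. Only genes of the list with at least 20 UMIs in the pair of sums are counted, a limit that dividing cells alone can meet. The counts of mitosis genes are therefore a description. Macrophage markers were lower, with 8 of 10 called lower in p25OE and 9 of 10 in WT, beside 22.8% and 24.4% of all genes (5 and 8 under plain CPM). C1qa gave 410 UMIs in the 19 dividing p25OE cells (0.369-fold of non-dividing, 0.334 to 0.407) and 11 UMIs in the 14 WT cells (0.0142-fold, 0.00710 to 0.0255). Cd74, the invariant chain of MHC class II, gave 1767 UMIs in p25OE (0.980-fold, 0.933 to 1.03) and 2172 in WT (1-fold, 0.962 to 1.05). Of the 4 MHC class II genes, Cd74 among them, 0 were called in either direction, with median log2 ratios of -0.04 in p25OE and 0.16 in WT (0.35 and 0.62 under plain CPM). Macrophage and MHC class II genes both helped to choose the set, so these levels are a description of it.

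Cell by cell, 10 of the 14 WT cells held 122 to 920 UMIs of MHC class II genes with 0 to 3 of C1qa. A further 3 held 9 to 69 UMIs of T or NK cell markers. Among the 19 p25OE cells 8 held C1qa, at 3 to 138 UMIs, and 4 held 24 to 330 UMIs of T or NK cell markers. Cells with 67 to 855 UMIs of MHC class II genes and no C1qa were present in p25OE too. Between the libraries 6 of 9 macrophage markers were called higher in dividing p25OE cells, where 12.6% of all genes were, and 0 of 10 in non-dividing ones, where 4% were. C1qa stood at 28.3-fold (15.6 to 57.1; non-dividing 1.08-fold) and Apoe, a lipid carrier that macrophages make, at 1056 against 21 UMIs (38.1-fold, 24.8 to 61.9; non-dividing 1.05-fold). C1qa was uneven over the p25OE cells, with 138, 113 and 80 UMIs in the cells that held most and none in others. Gzma, a protease of cytotoxic lymphocytes, gave 385 UMIs in 3 p25OE cells, 72.7% of them in 1, and 0 in WT, at least 97.4-fold higher against a floor of 3 counts over the group. Cd74 stood at 0.617-fold (0.579 to 0.657), close to its 0.629-fold in non-dividing cells.

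At 40 weeks the same rule found 11 of 218 p25OE cells and 6 of 4384 WT cells outside the melanotroph gate. None of the p25OE cells met the hormone-gene limits, and 1 WT cell met both these and the immune-gene limits. Of the 7726 p25OE cells kept at that age 218 lay outside the gate, 9 of them hormone-gene cells. Dividing hormone-gene cells of p25OE could therefore not be followed to 40 weeks. In WT 0 of 2191 hormone-gene cells were dividing at that age (0 to 0.168%). In that library the limit of 10% lay below the upper quartile of Prl in the reference cells for free RNA, 11.2%. The 95th percentiles of those cells were 21.6% for Prl and 12.8% for Gh. How many of the 2191 cells reached the limit by free RNA alone was not tested.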

How the data were processed

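RNA of single pituitary cells was counted in 4 libraries, 1 per genotype and age, from papain digests (0.1 mg/ml, 5 min at 37 °C) with the 10x 3′ v2 kit, per the labels' protocols, which aim for 5000 to 8000 cells in 2 runs. The deposited values are UMI counts per gene and barcode, whole numbers, per the file headers. Cell Ranger 3.0.2 and mm10 are named in the submitters' processing notes; 3.0.1 stands in the file headers. The authors' filter on barcodes is not stated.

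The cells, gene lists and comparisons were chosen with earlier results of these data known. Counts of the chosen cells were summed per library and compared by ratio, scaled by size factors (the median of ratios over genes with at least 20 UMIs in both sums). With 1 library per group there is no test. Against 0 counts a floor of 3 counts over the group was used. The calculation was tested on simulated Poisson counts per gene, without single cells, so sums set by 1 cell were not covered. For dividing hormone-gene cells 93.3% of unchanged genes were left uncalled. Of genes set at 3-fold 96% were called, and 78% with the interval beyond 1.5-fold. At 0.333-fold the shares were 82.8% and 51.7%. The median of ratios, thresholds, thinning and cell filters were varied. Cells passing the rule were not removed as doublets, which Scrublet in scanpy 1.11.5 sought per library. A free-RNA limit from cells with C1qa or Cd3e, planned for Gh and Prl, lay at 38.0% and 45.6% in p25OE and 37.2% and 54.1% in WT, above which lay 3 and 5 of the p25OE and 1 and 0 of the WT dividing cells, and 10% was used instead.

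Named are all genes of the rule, of the hormone list and of the Pou1f1 lineage, Tbx19, Sox2, C1qa, Cd3e, Cdk5r1 and Mcm2, the members of every other list with the 4 largest and the 4 smallest ratios at most, and the 12 highest and lowest ranked genes. Genes ranked within hormone-gene cells, and Prc1, the linker histone genes Hist1h1e, Hist1h1b and Hist1h1c, Hmmr, Stmn1, Brca1, Cdkn2d, Ghrhr, Apoe, Cd74, Gm42418, AY036118, Xist and Ddx3y, were named after their values were seen. Intervals were computed with scipy 1.17.1 in Python 3.11.15.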

Additional observations from a re-analysis of the deposited data

Results flagged for a closer look

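At 40 weeks, outside the comparisons made here, 11 of 218 p25OE cells outside the melanotroph gate met the rule for dividing cells, 5.05% (2.55 to 8.85), against 6 of 4384 WT cells (0.137%). The value was picked out because the share lies above that of the control library in data the comparisons did not use. Of these p25OE cells 8 had fewer than 2000 UMIs. Over all kept cells, inside the gate or not, the shares were 0.142% in p25OE and 0.0757% in WT. None of the 11 p25OE cells met the hormone-gene limits, 1 of the 6 WT cells met both those and the immune-gene limits, and 624 dividing p25OE cells lay inside the gate at that age, against 11 in WT.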

How the results depend on the processing

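Of 330 values recomputed under the alternatives 290 stayed within counting error or 1.5 times and 40 moved. These values are shares, percentages and counts, which have no sign. Among ratios, plain CPM turned the median gene between the libraries to -0.14 in hormone-gene cells (0.13 as reported) and to -0.05 over all dividing cells (0.10 as reported), and the Pou1f1 lineage median in WT to 0.25 (-0.29 as reported). No named gene that was called turned direction under it. The ratio of dividing shares among hormone-gene cells stayed between 5.77 and 7.96 under the filters on mitosis genes, detected genes, mitochondrial UMIs, gate UMIs, doublet scores, C1qa or Cd3e and depth. It fell to 5.17 (2.13 to 14.3) after thinning to 2000 UMIs. For cells with at least 1 UMI of Pou1f1 the ratio was 3.32 (1.47 to 7.99). The limits that define the hormone-gene set are not among these filters. The p25OE share of dividing cells was 1.87% with at least 3 and 1.1% with at least 5 mitosis genes. Pou1f1 in WT was detected in 21.7% of cells at 2000 UMIs. Over all dividing cells, p25OE against WT, 3 further mitosis genes and 2 replication genes were called higher. The first count became 6 (at least 5 genes), 1 (at least 1000 detected genes), 7 (at most 10% mitochondrial UMIs), 8 (without the highest doublet scores), 8 (without cells with C1qa or Cd3e), 1 (plain CPM) and 1 (cells of at least 2000 UMIs, added after seeing the data). The second became 6 (at least 5 genes), 9 (without cells with C1qa or Cd3e), 4 (genes from 1 UMI) and 0 (genes from 50 UMIs). Genes called lower in dividing p25OE cells, 12.8%, became 7.90% under plain CPM and 8.5% from 1 UMI. In WT 12.9% called higher became 20.5% under plain CPM, and 13.9% called lower 5.92% under plain CPM and 8.89% from 1 UMI. Between the libraries, 4.38% called lower became 8.53% from 1 UMI and 2.01% from 50 UMIs, and 8.11% called higher became 4.43% from 50 UMIs. The cause was not tested. No paired analysis was possible because each group is 1 library and the labels carry no replicate numbers. With 6 WT hormone-gene cells, 1 cell can set a gene's sum. Fewer than 4 mitosis genes can reflect shallow sampling as well as rest.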
